A study of Homo sapiens with 160 samples.

Results

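This account covers the addition of mometasone to indacaterol for 18 h in BEAS-2B cells, an immortalised line made from normal human bronchial epithelium. It rests on 9 of the 160 samples of the series, chosen by their treatment, replicate number and time. The 4 libraries with mometasone are replicates 2 to 5 of cells given mometasone furoate at 100 nM together with indacaterol at 100 nM (MF+Ind). The 5 libraries without it are replicates 1 to 5 of cells given indacaterol at 100 nM (Ind). Cells of both groups were grown to confluence in DMEM/F12 with serum and held overnight without it, and gene expression was measured by RNA sequencing. The series crosses mometasone, indacaterol and carbachol (10 µM) at 1, 2, 6 and 18 h, and 3 further pairs of groups serve here for comparison: mometasone alone (MF, n = 3) against vehicle (NS, n = 4) at 18 h, all 3 agents (n = 3) against indacaterol with carbachol (n = 4) at 18 h, and MF+Ind against Ind at 6 h (n = 5 each). Nothing in the labels says that replicates came from separate cultures, and the p-values below therefore reflect only the variation among these libraries, which could be technical.

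Mometasone is an inhaled glucocorticoid. It binds the glucocorticoid receptor, a transcription factor that moves to the nucleus, switches on some genes directly and lowers many inflammatory ones. Indacaterol is a long-acting agonist of the β2-adrenoceptor, which raises cyclic AMP, and the airway epithelium is a target of both drugs when they are inhaled together in asthma and chronic obstructive pulmonary disease.

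The cells matched their label only in part. Of 12 genes taken as markers of bronchial epithelium, 7 stood at a deposited value of 1 or more in all 9 libraries, while EPCAM, KRT19 and TP63 were below 1 in all 9. Of 10 fibroblast or mesenchymal markers, 6 stood at 1 or more in all 9 libraries, and 3 (PDGFRA, LUM and POSTN) were below 1 in all 9. All 6 endothelial markers and 5 of 8 leukocyte markers were below 1 in all 9, as were 5 of 6 markers of ciliated and secretory airway cells. The summed level of the epithelial markers ran from 517 to 1009 in MF+Ind and from 1185 to 1443 in Ind, and that of 10 fibroblast or mesenchymal markers from 478 to 582 in MF+Ind and from 841 to 922 in Ind. Of the 8 epithelial markers tested, CDH1, KRT8, KRT17 and KRT18 were called lower with mometasone, as were COL1A1, COL3A1 and THY1 of the 7 mesenchymal markers tested. Of the 3 leukocyte markers tested, PTPRC was called higher (log2 0.50, limma adjusted p = 0.048), but not when any 1 replicate was left out (limma adjusted p = 0.0561 to 0.219), and the summed level of the 8 ran from 15.9 to 24.1 in MF+Ind and from 12.2 to 24.7 in Ind. Their part in the other results was not tested. In bulk RNA, fewer cells of a type and less RNA per cell cannot be told apart. The 9 libraries had 12618 to 13205 genes at 1 or more and 8.65% to 13.2% of the summed values on mitochondrial genes, with overlapping ranges in both groups.

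With mometasone, 736 of 13044 tested genes were called higher (5.64%) and 780 lower (5.98%), at an adjusted p below 0.05 in limma. Every count of calls in a gene list below stands beside these shares, or 11.6% for either direction. The lists were not tested as sets. Genes were tested when they stood at 1 or more in at least 4 of the 9 libraries, after adding 1 and taking log2, a scale on which changes of genes with low values come out too small. Called genes included 45 below 1 in all Ind libraries and 43 below 1 in all MF+Ind libraries. Such genes passed the filter only through the group where they were high. At least 2-fold changes were seen in 219 of the genes called higher and 199 of those called lower, and at least 4-fold changes in 54 and 19. Of the calls, 722 higher and 775 lower had the same direction in all 4 same-numbered pairs. The 2 groups did not overlap for 498 of the genes called higher and 611 of those called lower, against 5.83% of all tested genes with MF+Ind wholly above Ind and 5.73% wholly below. The median log2 change over all tested genes was 0.05. Same-numbered libraries of the 2 groups deviated together, clearly so only in replicates 3 and 5. With the replicate number as a block 1819 genes were called higher and 1784 lower, all 1516 calls of the unblocked fit among them. Folds of rise or fall between the groups, here and below, come from the fitted log2 change. They are folds of value + 1 and differ from the ratio of the means shown. Means below are given ± SD over the 4 MF+Ind and the 5 Ind libraries.

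**Figure D1:**
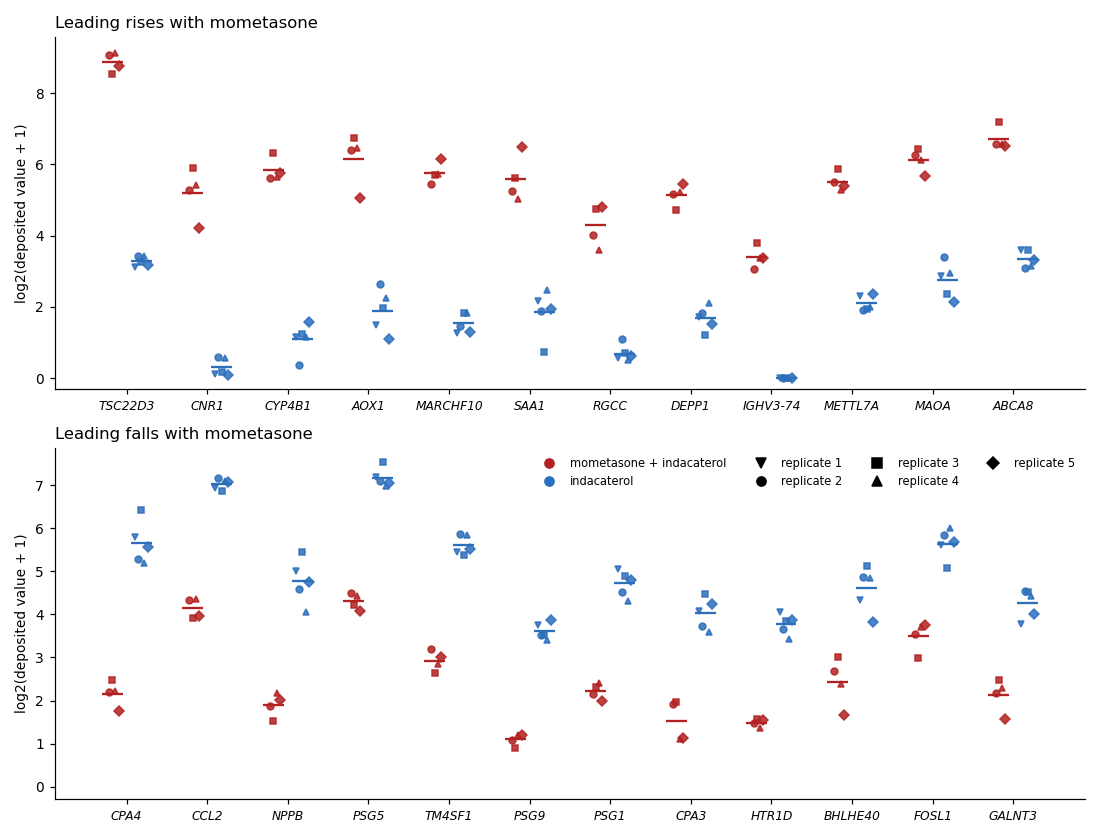
Deposited values of 12 leading rises and 12 leading falls, as log2(value + 1), in each MF+Ind library (red, left) and each Ind library (blue, right), with 1 symbol per replicate number and a bar at the group mean. The 2 groups do not overlap for any of the 24 genes, and IGHV3-74 is listed at 0 in all 5 Ind libraries.

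The largest log2 change of all tested genes was in a direct target of the glucocorticoid receptor. TSC22D3, which encodes the anti-inflammatory leucine zipper protein GILZ (GRCh38 chromosome X, 107713221 to 107777342, minus strand), stood at 538, 368, 552 and 432 in MF+Ind, against 7.65, 9.76, 8.57, 9.85 and 8.06 in Ind. Every MF+Ind library lay far above every Ind library, a 47.97-fold rise (log2 5.58, SE 0.24, limma adjusted p = 2.03e-43). FKBP5, a co-chaperone that limits the receptor's own activity (chromosome 6, 35573585 to 35728583, minus strand), read 158, 159.6, 148 and 111 in MF+Ind and 16.1, 20.4, 16.6, 19.5 and 15.99 in Ind. Replicate 5 was the lowest MF+Ind library and still more than 5 times the highest Ind library, and the fitted rise was 7.71-fold (log2 2.95, SE 0.17). A list of 30 known targets of the receptor was chosen with earlier results of these data known, and 24 of them were tested. Of these, 22 were called higher, beside 5.64% of all tested genes, and 0 lower, with a median log2 change of 1.61. They included the transcription factors ZBTB16 (9.18 ± 3.12 in MF+Ind, 0.144 ± 0.0654 in Ind, log2 3.10), KLF15 (34.5 ± 2.14 and 3.86 ± 0.945, log2 2.89), CEBPB (log2 1.99) and KLF9 (log2 1.69). PDK4, a kinase that restrains pyruvate oxidation (log2 2.41), and DDIT4, an inhibitor of mTOR signalling (log2 1.36), belonged to them too. SGK1, a kinase that regulates ion transport, had a log2 change of 0.70 (limma adjusted p = 0.132, 0.00167 with the replicate block), and STOM, a membrane scaffold gene, of 0.23 (limma adjusted p = 0.451). These were the 2 tested targets that did not pass. Among the targets called, ZBTB16 and CNR1 were below 1 in all Ind libraries and passed the filter only through MF+Ind.

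Of 4 tested metallothioneins, small proteins that bind zinc and copper, 3 were called higher and 0 lower. MT1X stood at 169, 93.3, 175 and 231 in MF+Ind, against 32.3, 24.3, 35.99, 21.2 and 33.8 in Ind. Its groups were well apart (log2 2.42, SE 0.33, limma adjusted p = 1.18e-09). MT1E reached 109 ± 37.1 in MF+Ind and 19.8 ± 7.27 in Ind (log2 2.43), and MT2A 2416 ± 939 in MF+Ind and 838 ± 141 in Ind (log2 1.46). MT1F did not pass (log2 0.37, limma adjusted p = 0.732). The genes are close copies of each other, so reads may be split between them and each value is uncertain.

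The enzyme genes CYP4B1, AOX1, MAOA and GPX3 were among the leading rises. CYP4B1, a cytochrome P450 of the lung (chromosome 1, 46757838 to 46819413, plus strand), stood at 48.2, 78.9, 48.8 and 52.9 in MF+Ind and at 1.21, 0.28, 1.38, 1.22 and 1.98 in Ind. AOX1, aldehyde oxidase, stood at 83.1, 105, 87.5 and 31.98 in MF+Ind and at 1.8, 5.23, 2.93, 3.77 and 1.16 in Ind. Replicate 5 was the lowest AOX1 library in each group, and for both genes the groups were apart (CYP4B1 log2 4.74, SE 0.26; AOX1 log2 4.26, SE 0.36). MAOA, which breaks down monoamines, rose 10.3-fold to 69.8 ± 14.6 in MF+Ind, against 6.06 ± 2.43 in Ind. GPX3, a secreted glutathione peroxidase, rose 8.96-fold, with 37.5, 46.95, 34.7 and 99.1 in MF+Ind and 5.21, 4.16, 4.92, 3.93 and 5.18 in Ind, where MF+Ind replicate 5 was the highest library. METTL7A, a methyltransferase-like gene, rose 10.5-fold to 45.05 ± 8.59 in MF+Ind, against 3.36 ± 0.653 in Ind. Of 14 tested genes of lipid and oxidative metabolism, 6 were called higher, beside 5.64% of all tested genes, and 0 lower (median log2 0.36). Beside MAOA and PDK4 these were ACSL1, which activates long-chain fatty acids (77.2 ± 8.53 in MF+Ind, 12.8 ± 1.05 in Ind, log2 2.50), LPIN1, a phosphatidate phosphatase (log2 1.68), GLUL, glutamine synthetase (log2 1.32), and PLIN2, which coats lipid droplets (log2 0.67).

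Receptor, transporter and secreted protein genes were among the other large rises. CNR1, the cannabinoid receptor gene (chromosome 6, 88139864 to 88166359, minus strand), was near 0 in Ind, at 0.090, 0.51, 0.12, 0.49 and 0.060, and stood at 38.2, 58.3, 41.9 and 17.7 in MF+Ind (log2 4.90, SE 0.25, limma adjusted p = 5.44e-36). The lowest CNR1 value with mometasone, in replicate 5, was above all Ind libraries. ABCA8, a lipid transporter, reached 106 ± 26.1 in MF+Ind and 9.32 ± 1.72 in Ind (log2 3.36). TSPAN8, a tetraspanin, reached 10.6 ± 3.4 in MF+Ind and 0.128 ± 0.133 in Ind (log2 3.32). MARCHF10, a ubiquitin ligase gene (log2 4.23), RGCC, a regulator of the cell cycle (log2 3.60), DEPP1, a target of FOXO factors (log2 3.46), and ESM1, which encodes endocan (log2 2.77), also rose. The immunoglobulin heavy chain segment IGHV3-74 was listed at 0 in all 5 Ind libraries and stood at 7.34, 12.7, 9.38 and 9.38 in MF+Ind, so no fold is given. CNR1, TSPAN8, ESM1 and IGHV3-74 were below 1 in all Ind libraries and passed the filter only through MF+Ind. The acute phase protein gene SAA1 read 37.4, 48.4, 31.5 and 88.99 in MF+Ind and 3.46, 2.72, 0.68, 4.6 and 2.81 in Ind (log2 3.76, SE 0.41, limma adjusted p = 1.04e-13). Its near copy SAA2 rose too (log2 1.23), so the split between them is uncertain. They were the 2 genes called higher of the 7 reported in the acute phase and epithelial defence list, where 0 were called lower.

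Genes of 4 inflammatory mediators fell. CCL2, the chemokine that attracts monocytes (chromosome 17, 34255218 to 34257203, plus strand), stood at 19.3, 14.02, 19.4 and 14.7 in MF+Ind, against 121, 144, 116, 136 and 134 in Ind. All 4 MF+Ind libraries were low, and the fitted level was 7.41-fold below Ind (log2 -2.89, SE 0.21, limma adjusted p = 1.44e-24). IL6 was low in both groups, at 0.22, 0, 0.26 and 0.28 in MF+Ind and 3.45, 2.06, 2.36, 1.69 and 1.7 in Ind, and fell (log2 -1.43, SE 0.24, limma adjusted p = 1.65e-06). IL11 (9.09 ± 1.89 in MF+Ind, 20.2 ± 2.99 in Ind, log2 -1.08) and LIF (0.87 ± 0.43 and 2.58 ± 1.18, log2 -0.91), cytokines of the IL6 family, fell as well. They were the 4 called lower of 6 tested cytokine and chemokine genes, with 0 called higher, and 14 of the 20 listed were below the filter. CXCL1, a neutrophil chemokine, had a log2 change of 0.49 (limma adjusted p = 0.333, 0.0264 with the replicate block). IL11 was not called without replicate 2 (limma adjusted p = 0.0675). IL6 was below 1 in all MF+Ind libraries and passed the filter only through Ind.

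Feedback genes of NF-κB, the transcription factor that drives many cytokine genes, gave 2 calls, both higher. NFKBIA, which encodes the inhibitor IκBα (chromosome 14, 35401511 to 35404749, minus strand), stood at 59.3, 62.9, 61.1 and 67.2 in MF+Ind and 21.2, 23.2, 18.6, 20.4 and 20.4 in Ind. All 4 MF+Ind libraries were more than 2 times the level of any Ind library (log2 1.55, SE 0.11, limma adjusted p = 4.17e-24). BIRC3, an inhibitor of apoptosis that acts in NF-κB signalling, rose 5.25-fold to 53.3 ± 14.4 in MF+Ind, against 9.44 ± 3.25 in Ind. There were 15 tested NF-κB subunits and feedback genes, so the 2 calls were a share near the 11.6% of all tested genes. With the replicate block 4 were higher and 1 lower. TNFAIP3, the A20 gene, read 7.01, 6.98, 6.32 and 1.31 in MF+Ind and 1.34, 2.62, 5.89, 6.83 and 1.35 in Ind, with overlapping groups (log2 0.51, limma adjusted p = 0.611).

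In the prostaglandin pathway the release enzyme and the degrading enzyme both rose. PLA2G4A, cytosolic phospholipase A2, which frees arachidonic acid, stood at 13.7, 15.5, 12.4 and 9.5 in MF+Ind and 1.09, 0.94, 0.85, 0.92 and 1.05 in Ind (log2 2.79, SE 0.16). HPGD, which inactivates prostaglandins, stood at 12.8, 8.36, 8.3 and 4.67 in MF+Ind and 0.62, 1.0, 0.81, 0.24 and 0.67 in Ind (log2 2.46, SE 0.20). The groups were apart for both, and they were the 2 calls among 7 tested genes, all higher. The prostaglandin E receptor gene PTGER4 was not called, at log2 0.72 (limma adjusted p = 0.053, 2.71e-04 with the replicate block, under which the list had 4 higher and 2 lower).

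Genes of receptor signalling for both drugs were read in the same libraries. NR3C1, the glucocorticoid receptor gene (chromosome 5, 143277931 to 143435512, minus strand), stood at 27.6, 37.4, 28.1 and 13.5 in MF+Ind and 31.98, 53.6, 75.7, 55.05 and 30.5 in Ind. The groups overlapped, and its fall (log2 -0.87, SE 0.31, limma adjusted p = 0.0482, 1.02e-08 with the replicate block) was no longer called in 8 of the 15 alternative analyses, among them those without replicate 2, 3, 4 or 5 (limma adjusted p = 0.129, 0.108, 0.123 and 0.2). Of 13 genes of this receptor and its chaperones, FKBP5 was called higher, and HSP90AA1 (392 ± 70.1 in MF+Ind, 689.9 ± 20.9 in Ind, log2 -0.83) and STIP1 (log2 -0.38), both of the HSP90 machinery, were called lower with NR3C1. STIP1 was not called when any 1 replicate was left out (limma adjusted p = 0.0664, 0.0974, 0.0516, 0.104 and 0.0888 without replicates 1 to 5), and 8 genes of the list were lower with the replicate block. Of 17 reported genes of β2-adrenoceptor regulation 0 were called in limma and 2 had an unadjusted p below 0.05, against 4 called lower with the block, and ARRB1, a β-arrestin gene, had a log2 change of -0.48 (limma adjusted p = 0.0891, 0.0317 with the block).

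Downstream of cyclic AMP the changes went both ways. Among 9 tested phosphodiesterases, the enzymes that break down cyclic nucleotides, 3 were called lower and 0 higher, or 4 lower and 1 higher with the replicate block. PDE4B stood at 0.96, 1.08, 1.02 and 0.52 in MF+Ind and 2.89, 3.01, 5.39, 3.39 and 2.21 in Ind, with the groups apart (log2 -1.18, SE 0.25, limma adjusted p = 1.48e-04). PDE10A (28.1 ± 10.6 in MF+Ind, 60.1 ± 27.5 in Ind, log2 -1.06) and PDE7B (log2 -0.49) fell, with overlapping groups, and PDE10A was not called without replicate 5 (limma adjusted p = 0.0666). With only the 9 libraries compared neither was called (limma adjusted p = 0.141 for PDE10A and 0.146 for PDE7B), nor was PDE10A with only the 18 h libraries (0.0773). Of 19 tested targets of cyclic AMP and CREB, 3 were called higher, PER1, RGS2 and DUSP1, and 5 lower, among them IL6, PDE4B and GEM, a small GTPase of the RGK family (log2 -1.25). RGS2, which limits signalling by the G protein Gq (chromosome 1, 192809039 to 192812283, plus strand), stood at 38.1, 20.4, 41.1 and 29.2 in MF+Ind and 12.3, 12.1, 7.88, 13.3 and 10.4 in Ind. The groups were apart (log2 1.42, SE 0.19, limma adjusted p = 1.48e-09). It was the 1 gene called higher of 9 tested RGS genes, while 3 were called lower, including RGS7 (log2 -0.91) and RGS3 (log2 -0.84).

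FOSL1 and JUN, subunits of the growth and inflammation factor AP-1, fell, and FOSL2 rose. FOSL1 stood at 10.7, 6.97, 12.2 and 12.6 in MF+Ind and 47.9, 56.4, 32.9, 63.95 and 50.6 in Ind. JUN stood at 15.9, 14.7, 18.1 and 16.9 in MF+Ind and 59.04, 60.9, 56.04, 68.5 and 55.99 in Ind. Neither gene's groups overlapped (FOSL1 log2 -2.14, SE 0.21; JUN log2 -1.81, SE 0.25). FOSL2, another subunit, stood at 81.1 ± 22.2 in MF+Ind and 39.6 ± 11.1 in Ind (log2 1.02, limma adjusted p = 0.00583). Of 13 tested AP-1 and early response genes 1 was called higher and 4 lower, or 7 lower with the replicate block. The other 2 called lower were the early response gene IER3 (log2 -1.71) and the small MAF protein gene MAFK (log2 -0.48), which was not called without replicate 2, 3, 4 or 5 (limma adjusted p = 0.0676, 0.145, 0.0928 and 0.0819).

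Phosphatases that switch off MAP kinases divided by member. DUSP1, which acts on p38 and JNK as well as ERK, stood at 200.0, 173, 214 and 175 in MF+Ind and 90.8, 102, 74.8, 102 and 74.4 in Ind, a 2.15-fold rise with the groups apart (limma adjusted p = 1.47e-06). ERRFI1, a feedback inhibitor of the EGF receptor, rose 2.65-fold. DUSP8 (2.52 ± 0.243 in MF+Ind, 8.3 ± 2.1 in Ind, log2 -1.38), DUSP5 (log2 -1.04), which acts on nuclear ERK, and DUSP14 (log2 -0.99) fell. That made 2 called higher and 3 lower of 15 tested, and 5 lower with the replicate block. HBEGF was the 1 of 7 tested genes of the EGF receptor system called lower (log2 -0.53, limma adjusted p = 0.0167), against 5 with the replicate block, and it was not called without replicate 2 or 5 (limma adjusted p = 0.169 and 0.102). A share of 1 in 7 is near the 11.6% of all tested genes.

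Clock genes moved in both directions, 3 higher and 5 lower of 16 tested. PER1, a repressor arm gene, stood at 115, 114, 105 and 114 in MF+Ind and 23.8, 37.9, 30.7, 42.5 and 21.5 in Ind. BHLHE40, a repressor that competes at clock elements, stood at 5.48, 7.04, 4.2 and 2.18 in MF+Ind and 19.3, 28.3, 34.1, 27.8 and 13.2 in Ind. The groups were apart for both, with replicate 5 the lowest BHLHE40 library in each group (PER1 log2 1.85, SE 0.17; BHLHE40 log2 -2.17, SE 0.36). NPAS2, an activator arm gene (log2 1.73), and NFIL3, a repressor of D-box genes (log2 1.21), rose, and DBP, which acts on the same D-box (log2 -1.30), and PER3 (log2 -1.21) fell. Of 15 tested KLF and C/EBP factors, 5 were called higher, ZBTB16, KLF15, CEBPB, KLF9 and CEBPD (log2 1.10), and KLF2 was called lower (8.96 ± 2.92 in MF+Ind, 21.7 ± 5.28 in Ind, log2 -1.19). Of these, ZBTB16 passed the filter only through MF+Ind.

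In the tissue factor and plasminogen system 5 of the 11 reported genes were called lower, or 8 with the replicate block. F3, the gene of tissue factor, which starts coagulation, stood at 8.62, 12.6, 7.54 and 6.2 in MF+Ind and 35.8, 35.8, 73.6, 30.8 and 26.7 in Ind (log2 -2.04, SE 0.32, limma adjusted p = 1.37e-07). The groups were apart, although Ind replicate 3 was more than 2 times every other Ind library for F3. PLAU, urokinase (17.1 ± 4.6 in MF+Ind, 44.8 ± 6.88 in Ind, log2 -1.35), SERPINE2, a thrombin inhibitor (log2 -1.29), and TFPI2, a protease inhibitor (log2 -0.66), fell. PLAT, tissue plasminogen activator, stood at 12.1 ± 2.87 in MF+Ind and 20.6 ± 4.5 in Ind and did not pass (log2 -0.73, limma adjusted p = 0.186, 1.09e-04 with the replicate block).

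**Figure D2:**
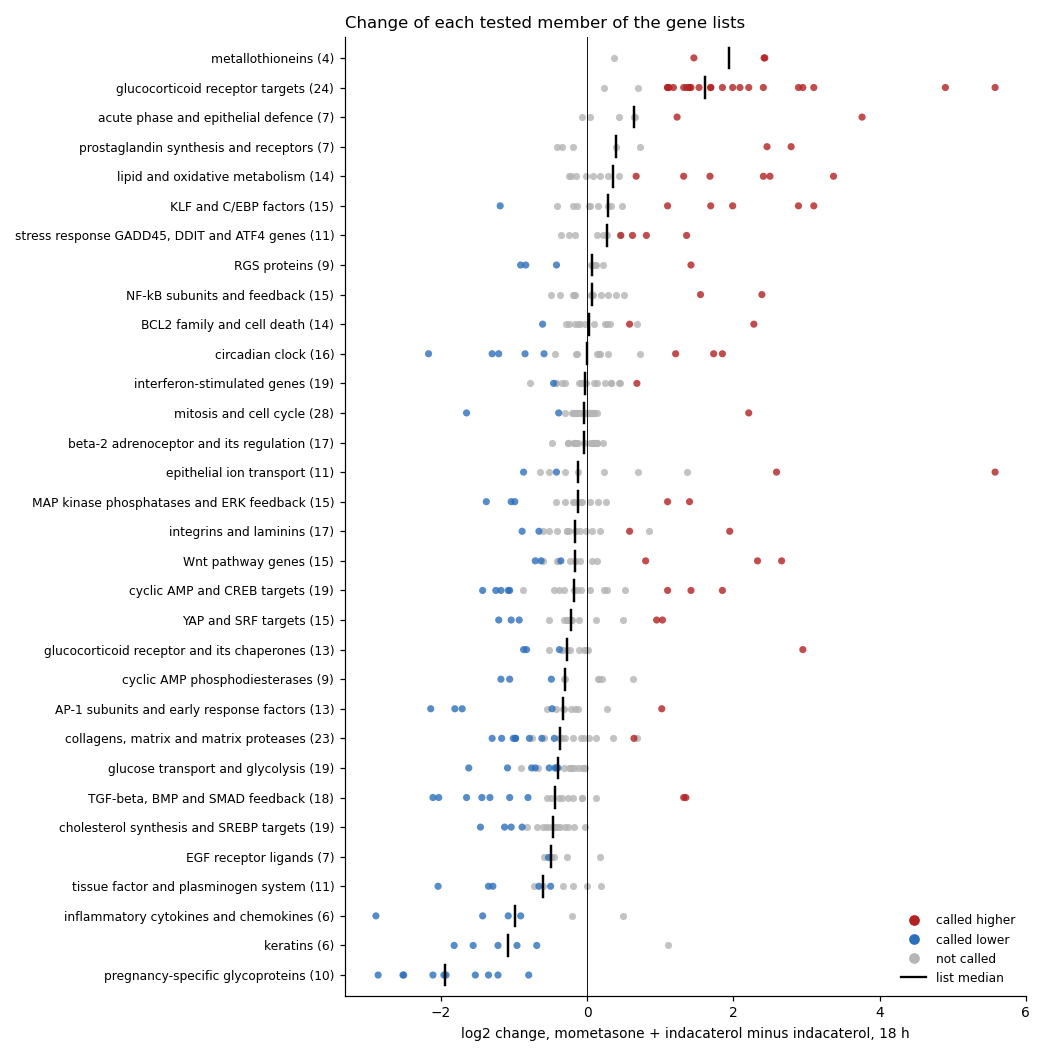
Log2 change (MF+Ind minus Ind at 18 h) of each tested member of 32 gene lists, ordered by the list median (black bar), with members called higher in red, called lower in blue and not called in grey, and the number tested in brackets. Glucocorticoid receptor targets lie between 0.23 and 5.58, and pregnancy-specific glycoproteins between -2.86 and -0.80.

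The pregnancy-specific glycoproteins, secreted relatives of the carcinoembryonic antigen that the placenta makes, all fell: 10 of 10 tested were called lower, with a median log2 change of -1.94. PSG5 (chromosome 19, 43166256 to 43186536, minus strand) stood at 21.8, 17.8, 20.6 and 15.8 in MF+Ind and 147, 136, 185, 125 and 132 in Ind (log2 -2.86, SE 0.15, limma adjusted p = 1.91e-34). The groups were far apart. PSG9 (log2 -2.52), PSG1 (log2 -2.51), PSG2 (log2 -2.11), PSG6 (log2 -1.96) and PSG4 (log2 -1.93) followed. In PSG2, MF+Ind replicate 5 stood at 13.03, against 2.32 to 4.72 in the other MF+Ind libraries. These genes form a cluster of near-identical copies, so reads may be shared among them and the count is not one of 10 independent genes.

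CPA4 and CPA3 were among the other large falls. CPA4, a carboxypeptidase (chromosome 7, 130293134 to 130324180, plus strand), stood at 3.59, 4.53, 3.68 and 2.36 in MF+Ind and 55.2, 38.2, 85.2, 35.4 and 46.7 in Ind, the largest fall of all called genes by log2 change (log2 -3.50, SE 0.24, limma adjusted p = 1.39e-25). CPA3, a related carboxypeptidase best known from mast cells, stood at 2.81, 2.93, 1.14 and 1.19 in MF+Ind and 15.9, 12.3, 21.4, 11.01 and 17.9 in Ind (log2 -2.49, SE 0.21). All MF+Ind libraries were below all Ind libraries for both. TM4SF1, a membrane protein of migrating cells (log2 -2.69), HTR1D, a serotonin receptor gene (log2 -2.28), GALNT3, an enzyme of mucin-type glycosylation (log2 -2.13), EVA1A, an autophagy gene (13.2 ± 2.4 in MF+Ind, 57.1 ± 4.52 in Ind, log2 -2.05), CDK15 (log2 -2.01) and PLAC8 (log2 -1.97) also fell.

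Promoter sequences were searched for the core of the glucocorticoid response element, GNACANNNTGTNC, which reads the same on both strands, in RefSeq windows from 250 bases before to 50 after the start of each gene on GRCh38.p14. Of the 19 reported genes among the 20 largest rises 14 had a window and 0 held the letters, and of the 19 among the 20 largest falls 12 had a window and 2 held them, CPA3 and EVA1A. Among all windows the share was 0.388%, and among tested genes 0.178%. A match is a description and not a bound site, and the lack of one says only that the letters are not in these windows. The stretches around the matches upstream of the start are shown because they are the 2 matches among these leading genes, with the match in capitals, at chr3:148865180-148865240 (plus strand, the match beginning at base -92 from the start) and chr2:75569720-75569780 (minus strand, beginning at -37), 5′ to 3′.
CPA3: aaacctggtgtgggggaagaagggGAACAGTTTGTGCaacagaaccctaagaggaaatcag
EVA1A: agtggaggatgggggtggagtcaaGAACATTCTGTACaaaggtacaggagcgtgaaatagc

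Keratin and matrix genes were called lower more often than higher, 5 against 0 and 8 against 1. KRT17, a keratin of basal and injured epithelium (chromosome 17, 41619441 to 41624842, minus strand), stood at 230.1, 96.04, 273 and 244 in MF+Ind and 652, 776, 613, 804 and 649 in Ind (log2 -1.82, SE 0.26, limma adjusted p = 5.79e-09). Replicate 3 was the lowest KRT17 library, and all MF+Ind libraries were below all Ind libraries. Of 6 tested keratins 5 were called lower, KRT17, KRT80 (log2 -1.56), KRT34 (log2 -1.22), KRT18 (log2 -0.96) and KRT8 (log2 -0.69), the last of which was not called when any 1 replicate was left out (limma adjusted p = 0.0741, 0.0766, 0.0805, 0.0544 and 0.0555 without replicates 1 to 5). KRT34 was not called without replicate 4 (limma adjusted p = 0.0566). KRT7 stood at 11.7 ± 5.24 in MF+Ind and 5.34 ± 3.63 in Ind and did not pass (log2 1.10, limma adjusted p = 0.276). With the replicate block it was called higher (limma adjusted p = 1.18e-06). Of 23 tested collagens, matrix genes and proteases 1 was called higher and 8 lower, or 2 and 15 with the block. COL1A1, the main fibrillar collagen, stood at 326, 315, 321 and 272 in MF+Ind and 607, 642, 598, 610.0 and 586 in Ind (log2 -0.98, SE 0.13), with the groups apart. SPARC, a collagen-binding glycoprotein (433 ± 36.4 in MF+Ind, 870.1 ± 59.6 in Ind, log2 -1.01), COL3A1 (log2 -1.30) and the crosslinking enzyme gene LOXL2 (log2 -1.17) fell.

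Targets of YAP and SRF, the factors that respond to cell tension, divided: 2 were called higher and 3 lower of 15 tested, or 3 and 6 with the replicate block. CCN2 (317 ± 44.2 in MF+Ind, 163 ± 18.97 in Ind, log2 0.95) and ANKRD1 (log2 1.03) rose, while CCN1, a close relative of CCN2 (189.6 ± 11.5 in MF+Ind, 389.6 ± 15.9 in Ind, log2 -1.04), the receptor kinase gene AXL (log2 -1.21) and the tropomyosin gene TPM1 (log2 -0.93) fell. CCN2 and CCN1 encode matricellular proteins of the same family, and their groups were apart in opposite directions. Of 17 tested integrins and laminins, ITGA1, a collagen receptor subunit (25.7 ± 12.5 in MF+Ind, 5.52 ± 2.19 in Ind, log2 1.95), and LAMA3 (log2 0.58) were called higher, and LAMB1 (log2 -0.89) and ITGA3 (log2 -0.66) lower, with 5 lower under the block. Without replicate 2 ITGA3 was not called (limma adjusted p = 0.0502), nor was LAMA3 without replicate 5 (limma adjusted p = 0.0848).

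Some antagonists and targets of bone morphogenetic proteins were among the falls. GREM1 stood at 8.66, 7.74, 7.8 and 2.75 in MF+Ind and 18.5, 43.01, 42.7, 41.4 and 17.99 in Ind, and NOG at 0.855 ± 0.236 in MF+Ind and 6.92 ± 3.001 in Ind (log2 -2.11 and -2.03). Both encode secreted BMP antagonists, and replicate 5 was the lowest GREM1 library in each group. The ligand gene BMP4 (19.3 ± 1.29 in MF+Ind, 63.2 ± 8.83 in Ind, log2 -1.65), the BMP target ID3 (log2 -1.44) and the pseudoreceptor gene BAMBI (log2 -1.33) fell as well, and the co-receptor gene TGFBR3 rose (log2 1.35). Of 18 tested genes of TGF-β, BMP and SMAD signalling 2 were called higher and 7 lower, or 2 and 11 with the replicate block. Among those not called without the block were ID1, ID2, SMAD7 and FST (log2 -0.26, -0.34, -0.07 and -0.50). In the Wnt pathway 3 were called higher and 3 lower of 15, or 3 and 7 with the block. The inhibitors DKK1, at 174, 225, 186 and 176 in MF+Ind and 35.04, 39.3, 37.5, 38.01 and 34.5 in Ind, and NKD1 (5.91 ± 2.61 in MF+Ind, 0.042 ± 0.0228 in Ind) rose with log2 changes of 2.33 and 2.66, as did the ligand gene WNT5A (log2 0.80). WNT5B (log2 -0.71) and WNT7B (log2 -0.63) fell with the receptor gene FZD2 (log2 -0.36). WNT5A was not called without replicate 3 (limma adjusted p = 0.071). NKD1 was below 1 in all Ind libraries and passed the filter only through MF+Ind.

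Calls among genes of glucose use and of cholesterol synthesis were all lower. Of 19 tested genes of glucose transport and glycolysis 0 were called higher and 8 lower, or 13 lower with the replicate block (median log2 -0.40). SLC2A3, a glucose transporter, stood at 11.5, 15.4, 14.3 and 5.36 in MF+Ind and 28.4, 38.8, 56.5, 45.1 and 19.9 in Ind, with the groups apart (log2 -1.62, SE 0.35, limma adjusted p = 2.32e-04). SLC2A1 (log2 -1.09), the pyruvate kinase gene PKM (449 ± 15.8 in MF+Ind, 761 ± 36.6 in Ind, log2 -0.76), the phosphofructokinase gene PFKP (log2 -0.71), the enolase gene ENO1 (log2 -0.52) and the hexokinase gene HK1 (log2 -0.44) were lower. Without replicate 5 neither SLC2A1 nor HK1 was called (limma adjusted p = 0.0555 and 0.0791), and without replicate 2 neither ENO1 nor HK1 (0.0827 and 0.0599). HK1 was not called without replicate 3 either (0.0893). Of 19 reported genes of cholesterol synthesis and SREBP control 4 were called lower and 0 higher, against 18 lower with the replicate block (median log2 -0.47). HMGCS1, HMG-CoA synthase, stood at 379.8, 283, 279.5 and 123 in MF+Ind and 489, 894, 850.3, 837 and 466 in Ind. The groups were apart, while libraries within each differed by up to about 3-fold (log2 -1.46, SE 0.49, limma adjusted p = 0.0332). INSIG1 (log2 -1.13), IDI1 (log2 -1.04) and FDPS (log2 -0.89) were the other calls. Without replicate 3 all but IDI1 were not called (limma adjusted p = 0.103, 0.0714 and 0.0703 for HMGCS1, INSIG1 and FDPS). HMGCS1 was not called without replicate 2, 4 or 5 either (0.0626, 0.0963 and 0.162), nor FDPS without replicate 4 (0.051) and INSIG1 without replicate 5 (0.0676).

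Among genes of epithelial ion transport, SCNN1A, the α subunit of the epithelial sodium channel (chromosome 12, 6346843 to 6377730, minus strand), stood at 15.99, 27.1, 15.4 and 11.3 in MF+Ind and 1.24, 2.03, 1.54, 3.42 and 1.86 in Ind, with the groups apart (log2 2.59, SE 0.29, limma adjusted p = 1.13e-12). NEDD4L, the ubiquitin ligase that removes this channel from the membrane, fell to 24.5 ± 4.6 in MF+Ind, against 46.1 ± 10.5 in Ind (log2 -0.87). ATP1B1, a sodium pump subunit, had a log2 change of -0.42. With TSC22D3, which the list also holds, 2 of the 11 reported were called higher and 2 lower, or 3 and 4 with the replicate block.

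Of 11 tested stress response genes 4 were called higher, beside 5.64% of all tested genes, and 0 lower. The 4 were DDIT4 (167 ± 20.8 in MF+Ind, 67.3 ± 21.4 in Ind), SESN1 (log2 0.81), GADD45A (log2 0.46) and GADD45B (log2 0.62). GADD45B was not called without replicate 3 or 5 or with median-ratio scaling (limma adjusted p = 0.0631, 0.0763 and 0.0546). In the BCL2 family 3 of 14 were called, beside 11.6% of all tested genes. Higher were the pro-apoptotic HRK (8.78 ± 1.58 in MF+Ind, 1.004 ± 0.264 in Ind, log2 2.28) and the pro-survival MCL1 (log2 0.58), and pro-survival BCL2 was lower (log2 -0.61). MCL1 was not called when any 1 replicate was left out (limma adjusted p = 0.114, 0.128, 0.161, 0.0945 and 0.0504 without replicates 1 to 5), nor was BCL2 without replicate 2 or 4 (0.0738 and 0.126). With the replicate block the family had 4 higher and 2 lower.

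Of 28 tested genes of mitosis and the cell cycle 1 was called higher and 2 lower, a share near that of all tested genes. CDKN1C, an inhibitor of cyclin-dependent kinases (chromosome 11, 2883213 to 2885773, minus strand), stood at 21.9, 19.4, 24.2 and 34.4 in MF+Ind and 6.04, 4.12, 2.58, 4.6 and 6.0 in Ind (log2 2.21, SE 0.34, limma adjusted p = 7.00e-08). CCND1, the cyclin of early G1, stood at 4.73, 2.59, 5.17 and 2.87 in MF+Ind and 12.7, 15.2, 14.5, 13.8 and 12.8 in Ind (log2 -1.65, SE 0.18, limma adjusted p = 2.55e-13). For both genes the groups were apart. CCNB1, the mitotic cyclin, had a log2 change of -0.39 and was not called without replicate 4 or 5 (limma adjusted p = 0.0881 and 0.0542).

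Mometasone was next compared with its own effect in cells that had no indacaterol. The change with mometasone alone against vehicle at 18 h uses no library of the present comparison. Of the 1516 genes called with indacaterol, 1494 (98.5%) had the same sign without it, as did 74.6% of all tested genes. Across the 13044 genes, which are not independent replicates, Pearson's r between the changes was 0.810. The median log2 change of genes called higher was 0.67 with indacaterol and 0.58 without, and of genes called lower -0.70 with and -0.66 without. The genes were called in the first of these contrasts, so their medians there are larger by choice.

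**Figure D3:**
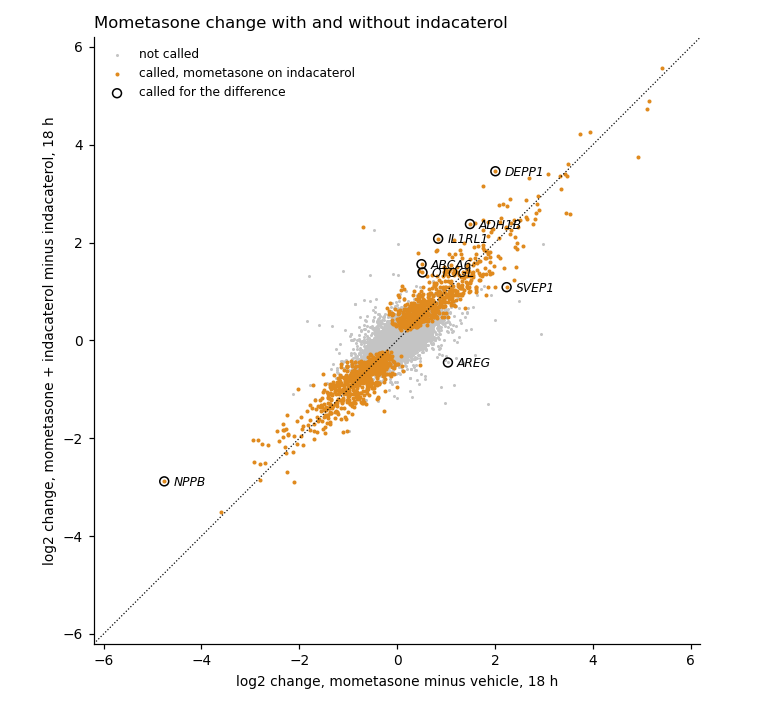
Log2 change with mometasone at 18 h on indacaterol (y axis, MF+Ind minus Ind) and without it (x axis, MF minus NS) for 13044 genes, with calls of the first in orange, equal change on the dotted line, and the 8 genes called for the difference circled. DEPP1 is at 3.46 on indacaterol and 2.01 without it, and NPPB at -2.88 and -4.76.

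The difference between the 2 changes was called for 8 genes (0.0613%), 6 of them positive (0.0460%) and 2 negative (0.0153%). Indacaterol with mometasone gave the highest level of 5 genes. DEPP1 stood at 34.7, 25.4, 36.2 and 43.02 in MF+Ind, 18.5, 11.5 and 16.8 in MF, 2.28, 2.52, 1.32, 3.33 and 1.88 in Ind and 3.48, 2.25, 4.98 and 2.06 in NS. Both groups without mometasone were low, and every MF+Ind library was above every MF library (difference in log2 change 1.45, SE 0.29, limma adjusted p = 0.00705). IL1RL1, the receptor of IL-33 known as ST2 (chromosome 2, 102311502 to 102352037, plus strand), stood at 6.52, 3.88, 7.21 and 2.92 in MF+Ind, 2.04, 1.01 and 1.98 in MF, 0.30, 0.83, 0.37, 0.39 and 0.13 in Ind and 0.43, 0.84, 0.57 and 0.12 in NS. It too was highest with both drugs in every library (difference 1.24, SE 0.25, limma adjusted p = 0.00705). ADH1B, an alcohol dehydrogenase, averaged 4.92 ± 1.83 in MF+Ind, 2.09 ± 0.571 in MF, 0.106 ± 0.0611 in Ind and 0.085 ± 0.0507 in NS (difference 0.88). IL1RL1 and ADH1B were below 1 in all Ind libraries and passed the filter only through MF+Ind, which favours such calls. The transporter gene ABCA6 (difference 1.06) and OTOGL, a gene related to otogelin of the inner ear (difference 0.87), had the same order at levels below 3. With a pseudocount of 0.1 the difference was called for none of these 5 genes (limma adjusted p = 0.215 for DEPP1 and 0.728 for OTOGL). Their calls thus depended on the scale used for low values.

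In the other 3 genes the means in Ind and in NS were more than 2 times apart. NPPB, which encodes B-type natriuretic peptide (chromosome 1, 11857464 to 11858931, minus strand), stood at 2.68, 1.86, 3.51 and 3.05 in MF+Ind, 1.66, 1.57 and 1.8 in MF, 31.4, 23.02, 43.04, 15.7 and 25.9 in Ind and 52.3, 80.1, 78.0 and 79.5 in NS. Every library with mometasone was below every library without it, with log2 changes of -2.88 on indacaterol and -4.76 without it (difference 1.88, SE 0.40, limma adjusted p = 0.0161). SVEP1, an adhesion protein of the matrix, averaged 6.63 ± 1.2 in MF+Ind, 9.14 ± 2.24 in MF, 2.56 ± 0.391 in Ind and 1.11 ± 0.159 in NS (difference -1.15, limma adjusted p = 0.0083). AREG, the EGF receptor ligand amphiregulin, stood at 3.84, 3.08, 4.8 and 3.01 in MF+Ind, 6.01, 3.22 and 4.8 in MF, 5.06, 6.47, 4.72, 5.39 and 5.02 in Ind and 2.06, 0.85, 2.73 and 1.52 in NS. Its mometasone change was -0.45 with indacaterol, which did not pass, and 1.04 without (difference -1.49, SE 0.32, limma adjusted p = 0.0173). With a pseudocount of 0.1 only NPPB and AREG kept the call for the difference (limma adjusted p = 0.0338 and 0.0343). These 8 calls were not stable: 3, 2, 2 and 5 were made without replicate 2, 3, 4 and 5. With only the 18 h libraries none of the 8 was called (lowest limma adjusted p = 0.0907, for SVEP1). The 1 call made there was of another gene. With only the 4 groups compared 0 calls were made, and 252 genes had an unadjusted p below 0.05. In the fit of all libraries 293 genes had an unadjusted p below 0.05, 2.25% of all tested, under the share unchanged genes would give in a calibrated test, so the small number is no evidence that the other genes changed alike.

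**Figure D4:**
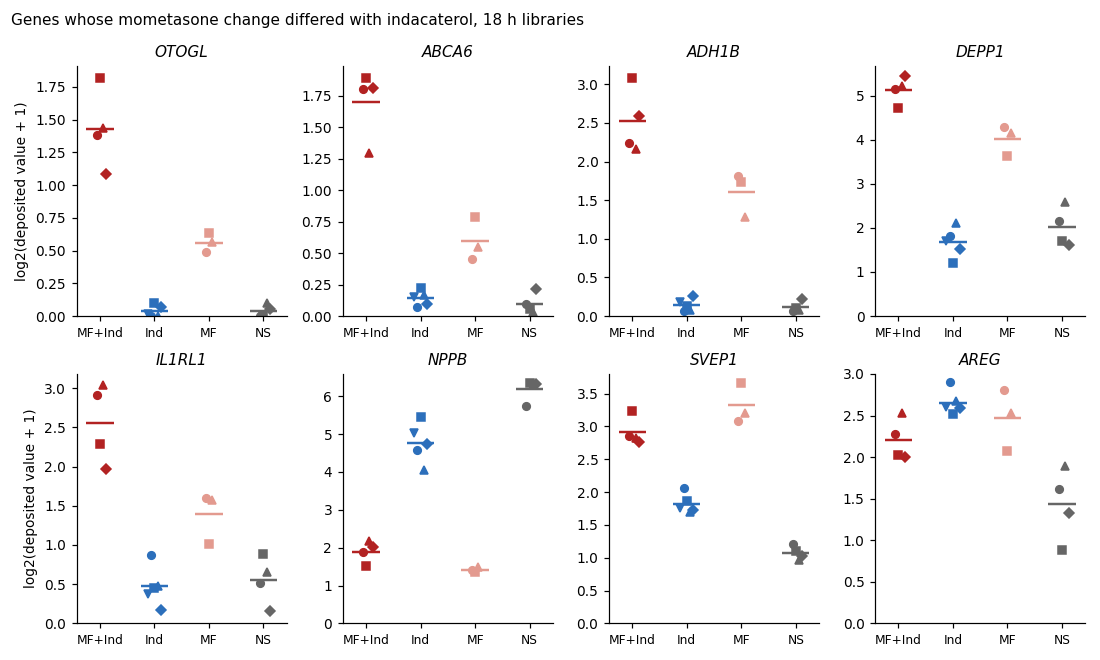
Log2(value + 1) in each 18 h library of the 8 genes called for the difference, in MF+Ind (red), Ind (blue), MF (pink) and NS (grey), with 1 symbol per replicate and a bar at the mean. For DEPP1, IL1RL1, ADH1B, ABCA6 and OTOGL every MF+Ind library lies above every library of the other 3 groups.

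The series also gives the same comparison at earlier times, with other libraries. Of the 1516 genes called at 18 h, 1447 (95.4%) had the same sign at 6 h, as did 74.0% of all tested genes. The difference between the changes at 18 h and at 6 h was called for 171 genes (1.31%), 40 of them positive (0.307%) and 131 negative (1.00%). Of the 131, 74 were genes called lower at 18 h, 12 were called higher and 45 were not called. Of the 40, 27 were called higher. The count was 98, 92, 112 and 102 without replicate 2, 3, 4 and 5.

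Of the 24 tested glucocorticoid receptor targets 2 had a called difference between the times, PER1 and RGS2, and both had a smaller rise at 18 h than at 6 h. MT1X, which is outside that list, had a log2 change of 3.04 at 1 h, 3.40 at 2 h, 4.19 at 6 h and 2.42 at 18 h (18 h minus 6 h -1.77, SE 0.45, limma adjusted p = 0.0138). For PER1 the changes were 1.97, 2.02, 3.27 and 1.85 at the same times (difference -1.41, limma adjusted p = 1.25e-05). PER1 in Ind stood at 12.9 ± 3.27 at 6 h (n = 5) and 31.3 ± 8.99 at 18 h, and in MF+Ind at 131 ± 13.8 at 6 h (n = 5) and 112 ± 4.95 at 18 h, so the means without mometasone were also unequal at these times. RGS2 (difference -1.26), NFKBIA (-0.72) and HRK, a pro-apoptotic gene of the BCL2 family (-1.31), also had a smaller rise at 18 h. The difference was not called for MT1X without replicate 2 or 3 (limma adjusted p = 0.0596 and 0.265), for NFKBIA without replicate 2 (0.0554) or for HRK without replicate 1 or 5 (0.0851 and 0.071). Of the named genes PLAT had the largest difference between the times. It averaged 244 ± 114 in MF+Ind and 34.8 ± 10.3 in Ind at 6 h (n = 5 each), a log2 change of 2.70, against -0.73 at 18 h (difference -3.43, SE 0.47, limma adjusted p = 7.57e-08).

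Other genes had a larger change at 18 h. TSPAN8 had log2 changes of -0.12, 0.13, 0.93 and 3.32 at 1, 2, 6 and 18 h (18 h minus 6 h 2.38, limma adjusted p = 2.72e-13). GPX3 (2.09), ADH1B (1.65), METTL7A (1.63), DEPP1 (1.40), ESM1 (1.09) and HPGD (0.95) also had larger rises at 18 h than at 6 h. ESM1 and HPGD were weak calls (limma adjusted p = 0.011 and 0.0493). The ESM1 difference was not called without replicate 2, 3 or 4 (limma adjusted p = 0.0631, 0.0678 and 0.188), nor that of HPGD without replicate 1, 2, 3 or 4 (0.102, 0.272, 0.113 and 0.318). With a pseudocount of 0.1 or only the compared groups neither was called (limma adjusted p = 1 and 0.329 for ESM1, 1 and 0.507 for HPGD). Among falls, CPA4 had log2 changes of -0.26, -0.45, -1.18 and -3.50 at the 4 times (difference -2.32, limma adjusted p = 2.14e-07), and PSG5 of 0.01, -0.18, -0.82 and -2.86 (difference -2.04, limma adjusted p = 2.72e-13). LY6K, a GPI-anchored protein gene (-1.64), and CCND1, cyclin D1 (-0.94), had negative differences too, with log2 changes at 6 h of -0.05 and -0.71. PFKP (difference -1.65) instead changed sign, with log2 changes of 0.94 at 6 h and -0.71 at 18 h. The CCND1 difference was not called without replicate 2, 3 or 5 (limma adjusted p = 0.18, 0.125 and 0.162) or with only the compared groups (0.0848). CCL2 was already low at 6 h, with 14.5 ± 4.12 in MF+Ind and 182 ± 40.8 in Ind (n = 5 each), and its difference between the times did not pass (0.69, limma adjusted p = 0.438, 0.0316 with the replicate block).

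**Figure D5:**
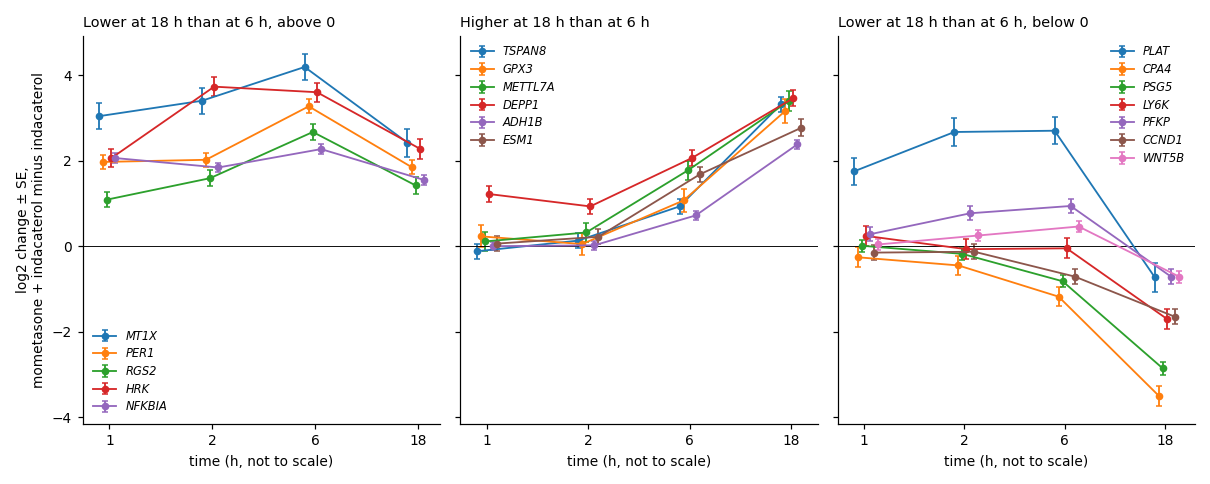
Log2 change with mometasone on indacaterol (MF+Ind minus Ind) ± SE at 1, 2, 6 and 18 h, in genes whose change differed between 18 h and 6 h, with a panel each for smaller rises, larger rises and negative changes at 18 h. PLAT is at 2.70 at 6 h and -0.73 at 18 h, and TSPAN8 at 0.93 and 3.32.

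Mometasone was also tested with carbachol, a muscarinic agonist, added to both groups. Of the 1516, 1506 (99.3%) had the same sign in all 3 agents against indacaterol with carbachol at 18 h, as did 78.2% of all tested genes, and Pearson's r across genes was 0.868. TSC22D3 changed by log2 5.53 there and CCL2 by -2.83, against 5.58 and -2.89 without carbachol. The difference was called for 0 genes in limma and for 83 at an unadjusted p below 0.05 (0.636%), a share well under what unchanged genes would give, so 0 calls do not show that the changes were alike. Without a filter on low values 6 were called.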

How the data were processed

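Gene expression was read from the table the authors deposited, with 1 column per library. Its values are named TPM by the authors, but the deposited columns sum to between 847289 and 1498420 (median 961146), so they are treated as a normalised signal whose last scaling is not given in the sources used here. Depth is unknown, and values give no counting interval. Per the submitters' processing notes, bcl2fastq 2.17.1.14 and STAR 2.4.2a were used with build GRCh38. The quantifier and its use of strand are not given, so overlapping and near-identical genes are uncertain. Per the labels, sequencing used 2 kits, with no kit given per library. Of the columns, 10 were not used, 6 headed 8h and 4 marked as excluded.

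Genes at 1 or more in at least 4 of the 9 libraries (13044 of 29273) were tested by limma (version 3.58.1, R 4.3.3) after log2(value + 1), the model holding 1 coefficient for each of 32 groups over 150 libraries (118 residual degrees of freedom), a mean-variance trend and Benjamini-Hochberg adjustment over all tested genes. Since MF+Ind has 4 libraries, a gene can pass through that group alone: 50 tested genes were below 1 in all Ind libraries and 60 in all MF+Ind libraries. Of these, 45 and 43 were called, and the filter itself favoured such calls. Differences between changes were contrasts of the same fit. Deviations of same-numbered MF+Ind and Ind libraries correlated at 0.329, 0.691, 0.366 and 0.844 for replicates 2 to 5, so the numbers were taken to pair these samples. The highest correlation with another number was 0.335, 0.0878, 0.35 and -0.263. The pairing was therefore clear for replicates 3 and 5, and not for 2 and 4. In MF and NS same-numbered libraries correlated at 0.333, 0.479 and 0.0783 for replicates 2 to 4. At 6 h the values were 0.203, -0.0907, 0.419, 0.504 and 0.619 for replicates 1 to 5. Another number correlated more in MF and NS replicate 4 (0.185) and at 6 h in replicates 1 and 2 (0.567 and 0.533). Alternatives changed the pseudocount, filter, scaling, libraries, covariates and replicates. The analysis was tested on simulated data.

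Named genes were the 20 largest rises and 20 largest falls among calls with 1 direction in all 4 pairs, up to 6 called and 2 uncalled genes of each of 32 lists, and up to 10 genes per difference. The libraries and gene lists were chosen with earlier results of these data known. Of 529 listed genes 417 were tested, and 6 further genes, kept in the fit, are not reported here and are left out of list counts. Coordinates are from GENCODE 29, matched by symbol, and promoters from RefSeq (GRCh38.p14), which matched 10106 of the tested genes.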

Additional observations from a re-analysis of the deposited data

Results flagged for a closer look

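A sample stood far from the rest of its group, by the gap to its nearest neighbour over the range, for 23 gene and group combinations. Chance marks about 1 in 20 groups, and 311 were examined. Replicate 3 of Ind was the most frequent. It was high for F3 (73.56, others 26.69 to 35.8), PSG2 (44.95, others 17.78 to 22.87), NOG (12.1, others 4.7 to 6.43), PLAC8 (62.29, others 27.12 to 28.43), SLC2A1 (212.1, others 74.12 to 112.9) and ZBTB16 (0.26, others 0.11 to 0.13). It was low for CEBPB (9.91, others 21.73 to 24.63), CEBPD (32.83, others 65.7 to 77.54) and DUSP5 (13.6, others 17.77 to 19.35). Other Ind libraries were marked for RGCC (replicate 2, 1.13, others 0.42 to 0.62) and ESM1 (replicate 1, 0.32, others 0 to 0.09).

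Replicate 5 of MF+Ind was low for GREM1 (2.75, others 7.74 to 8.66), CDK15 (0.35, others 1.73 to 1.99), TNFAIP3 (1.31, others 6.32 to 7.01), NFIL3 (26.7, others 29.28 to 29.59), CCN1 (172.4, others 193.8 to 196.7) and MCL1 (107.4, others 160.5 to 169.9), and high for KRT18 (224.5, others 152.2 to 155.6) and KRT8 (145, others 106.5 to 111.7). Replicate 3 of MF+Ind was high for CYP4B1 (78.87, others 48.22 to 52.94), ABCA8 (144.8, others 89.93 to 94.94) and SVEP1 (8.41, others 5.82 to 6.23), and replicate 4 was low for PER1 (104.7, others 114.2 to 115.2).

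The mometasone change at 18 h differed with and without indacaterol, by a limma interaction term, for DEPP1 (1.45), NPPB (1.88), IL1RL1 (1.24), ABCA6 (1.06), ADH1B (0.88), OTOGL (0.87), SVEP1 (-1.15) and AREG (-1.49), as the change with indacaterol minus that without, in log2.

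The change on indacaterol also differed between 18 h and 6 h, as 18 h minus 6 h in log2. Positive differences were those of TSPAN8 (2.38), GPX3 (2.09), ADH1B (1.65), METTL7A (1.63), DEPP1 (1.40), ESM1 (1.09), ABCA6 (1.00), HPGD (0.95), IGHV3-74 (0.93), RGS3 (0.72) and OTOGL (0.50). Negative differences were those of PLAT (-3.43), CPA4 (-2.32), PSG5 (-2.04), PSG9 (-1.80), MT1X (-1.77), PFKP (-1.65), LY6K (-1.64), PSG1 (-1.57), PER1 (-1.41), CPA3 (-1.35), HRK (-1.31), RGS2 (-1.26), PER3 (-1.18), WNT5B (-1.18), PSG4 (-1.17), SERPINE2 (-1.06), CCND1 (-0.94), KRT80 (-0.89), NFKBIA (-0.72) and TPM1 (-0.41). Some of these calls were weak. TPM1 was not called when any 1 replicate was left out (limma adjusted p = 0.0588 to 0.358). Without replicate 2 or 5 IGHV3-74 (0.18 and 0.122), PER3 (0.362 and 0.14), RGS3 (0.0658 and 0.249) and KRT80 (0.17 and 0.126) were not called. With a pseudocount of 0.1 ABCA6, IGHV3-74 and OTOGL were not called (limma adjusted p = 0.108, 0.865 and 0.716).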

How the results depend on the processing

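The count of called genes at 18 h was most affected by how the spread was estimated. With only the 9 libraries of both groups 392 genes were called higher and 487 lower, and 841 of the 1516 calls were shared. With the replicate block over all libraries 1819 were higher and 1784 lower, and with the block in the 9 libraries 1863 and 1753. Leaving out 1 replicate gave 505 to 603 higher and 604 to 741 lower. Other settings stayed within 1.5 times, and with median-ratio scaling 620 were higher and 936 lower, so 39.8% of calls were higher, against 48.5%. No named gene called in limma changed direction in these alternatives. Of the 156 gene results in the text, 16 lost their call with only the compared groups and 4 to 16 when 1 replicate was left out.

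The 8 calls for the difference with and without indacaterol became 2 with a pseudocount of 0.1, 17 with no filter, 1 with only 18 h libraries, 0 with only the 4 groups (with 30 and 5 under the replicate block over all libraries and over the 4 groups), and 2 to 8 without 1 replicate. The 1 call with only 18 h libraries was of a gene outside these 8. The 171 calls for 18 h against 6 h became 104 with only the compared groups, 811 and 333 with the replicate block over all libraries and over those groups, and 92 to 149 without 1 replicate. By the correlations above, replicate numbers paired only some of the samples at 6 h and in MF and NS. These blocked counts therefore rest in part on a shared number alone. The restriction to 18 h libraries was not run for the time comparison, which needs both times. The difference with carbachol had 0 calls, and 6 with no filter. For the change at 18 h the block altered no call of the genes named in the text other than SGK1, ARRB1, CXCL1, PTGER4, PLAT and KRT7. Causes were not tested. Depth is unknown, so the precision of low values cannot be given.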

Other observations

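Interferon-stimulated genes, which mark the antiviral response, were called at a share near the 11.6% of all tested genes. Of 19 tested 1 was called higher, IFI44L (1.37 ± 0.329 in MF+Ind, 0.508 ± 0.442 in Ind, log2 0.68), and 1 lower, IFIT2 (0.998 ± 0.294 in MF+Ind, 1.74 ± 0.323 in Ind, log2 -0.46), against 2 and 5 with the replicate block. Neither was called without replicate 2 (limma adjusted p = 0.0676 and 0.12).

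The leading genes TSC22D3 and CNR1 were followed over time. TSC22D3 averaged 285 ± 141 at 1 h, 462 ± 50.6 at 2 h, 740.3 ± 135 at 6 h (n = 5 each) and 472 ± 87.7 at 18 h in MF+Ind, against 8.27 ± 2.86, 10.1 ± 1.74, 6.87 ± 1.24 and 8.78 ± 0.993 in Ind. CNR1 averaged 0.502 ± 0.283, 2.1 ± 0.872, 32.9 ± 14.02 and 39.04 ± 16.7 in MF+Ind at the same times, against 0.162 ± 0.127, 0.14 ± 0.202, 0.202 ± 0.0832 and 0.254 ± 0.226 in Ind. At 1 h TSC22D3 was thus already high and CNR1 near 0 with mometasone. At 18 h TSC22D3 averaged 439 ± 74.8 with all 3 agents (n = 3), 360.2 ± 39.4 with mometasone and carbachol (n = 4) and 363 ± 33.1 with mometasone alone (n = 3), and CNR1 38.2 ± 20.1, 33.7 ± 12.8 and 38.7 ± 5.55. Differences among these groups were not tested.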
